A study of Rattus norvegicus with 12 samples.

Results

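Injured rat spinal cord 7 d after compression was compared with injured cord 24 h after compression. The comparison rests on 4 of the 12 RNA pools of the series, taken by their labels: the G93A SOD1 and the WT pool at 7 d, and the G93A SOD1 and the WT pool at 24 h. Each pool combined thoracic cord RNA from rats with a mild compression injury of the cord (SCI). All animals were 10 weeks old, female and of the Sprague-Dawley strain. The G93A SOD1 rats carry a mutant SOD1 gene (superoxide dismutase 1, an antioxidant enzyme), a mutation that in people causes amyotrophic lateral sclerosis, and the WT rats were their littermates. The promoter of the mutant gene, the transgenic line and the number of rats in a pool are not given in the sources used here. No sham pool entered the comparison; the 8 other pools (injury at 30 min and 4 h, sham surgery at 30 min and 4 h) only helped to estimate the spread. Each genotype and time was 1 pool on 1 array, so the test takes the genotypes as its pair of replicates, and its p-values measure no more than how these pools scatter, part of which may be technical.

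After a cord injury, resident cells and arriving leukocytes first release chemokines and acute-phase proteins, and neutrophils are the first blood cells to enter. Over the following days microglia and macrophages gather at the lesion, take up myelin and dead cells, digest them in lysosomes and pass on the lipid. Fibroblast-like cells lay down a collagenous scar while astrocytes border it. Each of these cell states has well known genes, and the lists below group them.

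The arrays held 22226 probes, and 13793 that were detected (detection p-value under 0.05) on at least 2 of 12 arrays were tested. The identifiers in the deposited signal table stand beside values of other probes, so they were sorted before use, as described under the processing. The 4 pools had 49.6% to 52.5% of probes detected. The WT pool 30 min after injury stood apart, with 41.3% detected and 1069 probes differing 2-fold or more from its G93A partner, against 6 to 116 in the other genotype pairs. It is not one of the 4 pools but enters the residual spread, and counts are therefore also given without it. All markers tested for neurons (5 of 5), oligodendrocytes (4 of 4) and astrocytes (3 of 3) were detected in all 4 pools, while Gfap, Chat and Foxj1 were not among the probes tested. Sod1 itself had log2 levels of 12.64 and 12.29 in the G93A and WT pools at 7 d, against 12.47 and 12.7 in those at 24 h (change -0.12 ± 0.17, SE, adjusted p = 0.85). It did not separate the genotypes, and since it is not given whether this rat probe reads the mutant gene, it does not check the labels.

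Between 24 h and 7 d, many genes of microglia, lysosomes, complement and scar matrix rose, and several chemokines, acute-phase genes and enzymes of cholesterol synthesis fell. Of 13793 probes, 624 passed an adjusted p of 0.05 in limma (4.52%), 408 of them higher at 7 d (2.96%) and 216 lower (1.57%). All 624 moved the same way in both genotypes, which the test itself favours, since it takes the genotypes as its pair of replicates. Among all 13793 probes, called or not, 4325 had a change above 0 in both genotypes and 5051 a change below 0 in both. The change was at least 2-fold for 210 of the probes that rose and 83 of those that fell, and it was 2-fold or more in each genotype for 157 and 51 of these. Of the probes that rose, 321 rose more in WT cord and 87 more in G93A cord. Of those that fell, 136 fell more in WT cord and 80 more in G93A cord. The median change of all probes was -0.01. Of the 13793 probes tested, 2129 had an unadjusted p under 0.05. Without the WT 30 min injury pool, 840 probes rose (6.09%) and 659 fell (4.78%), the 624 among them. With arrays scaled to a common median in place of quantile normalization, the split turned to 255 higher and 680 lower, so that 27.3% of calls were rises against 65.4%.

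**Figure D1:**
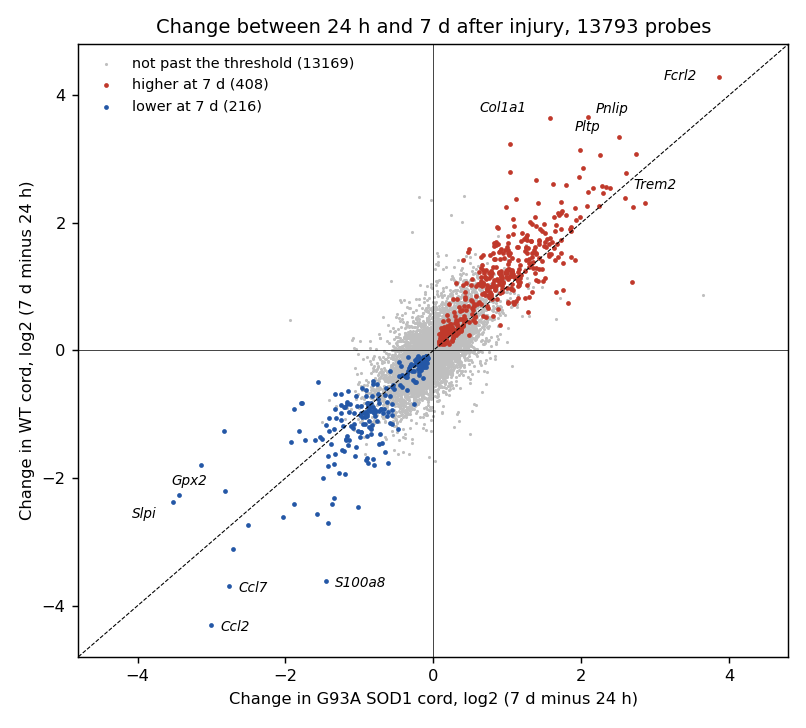
Change between 24 h and 7 d after injury for 13793 probes, with the log2 change in G93A SOD1 cord on the x axis and in WT cord on the y axis; each point is 1 probe and the dashed line marks equal change. The 408 red and 216 blue probes that passed the threshold lie in the quadrants where both genotypes moved the same way, with Fcrl2 and Ccl2 at the far ends.

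Microglial genes rose. Of the 18 tested members of the microglia identity list, 13 rose (72.2%, against 2.96% of all probes) and none fell, with a median change of 0.73. Fcrl2, an Fc receptor-like gene whose synonym Fcrls is a microglial marker in mouse, had the largest rise of any named gene tested. Its log2 level was 10.8 in the G93A and 11.52 in the WT pool at 7 d, against 6.94 and 7.24 in the G93A and WT pools at 24 h. The 7 d pools lay far above the 24 h pools, and above all 4 sham pools (6.55 to 6.64), which sat near the detection limit. The rise was 4.07 ± 0.23 on the log2 scale, or 16.8-fold (SE, 2 pools against 2, adjusted p = 1.91e-05). In a bulk sample, more cells of a type and more RNA per cell cannot be told apart.

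Trem2, the lipid-sensing receptor of phagocytic microglia, stood at 12.21 and 12.41 at 7 d (G93A, WT), against 9.61 and 9.64 at 24 h. Its rise was 2.69 ± 0.22 (adjusted p = 0.000106), with 2.60 in G93A and 2.77 in WT cord. Slc2a5, a fructose transporter found in microglia, rose by 2.35 ± 0.28, with 10.66 and 10.89 at 7 d against 8.51 and 8.34 at 24 h. P2ry12, the ADP receptor of resting microglia, reached 8.2 in G93A and 8.19 in WT cord at 7 d, against 6.61 and 6.68 at 24 h. Its 24 h levels were below those of every sham pool (6.82 to 7.25) and its 7 d levels were above them, a rise of 1.54 ± 0.18 (adjusted p = 0.000904). Aif1, which encodes the microglial protein Iba1, rose by 1.32 ± 0.17, and the fractalkine receptor Cx3cr1 rose by 0.36 ± 0.06 with 24 h levels close to the detection limit. The defining microglia and macrophage markers Aif1, Cd68 and Cx3cr1 all rose, and their summed level was 10320 and 12520 at 7 d (G93A, WT) against 3711 and 3738 at 24 h. Csf1r was not among the probes tested.

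**Figure D2:**
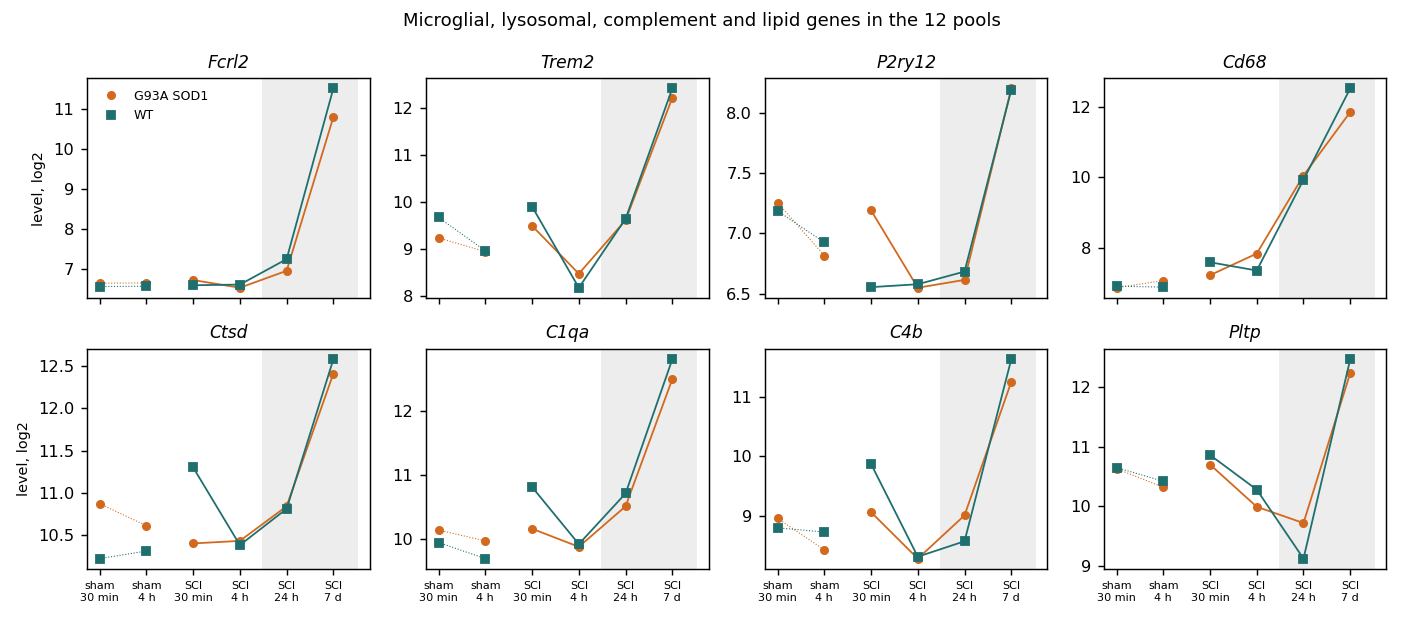
Normalized log2 level (y axis) of 8 genes that rose between 24 h and 7 d, in all 12 pools ordered by condition along the x axis, with G93A SOD1 as circles, WT as squares and the compared times shaded. In each panel both 7 d pools lie above both 24 h pools, and for P2ry12 and Pltp the 24 h pools lie below the sham pools.

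Genes of the phagosome and lysosome rose with them. Of 33 members tested, 16 rose (48.5%, against 2.96%), 1 fell and the median change was 0.79. Ncf1, a subunit of the phagocyte NADPH oxidase, had levels of 11.15 and 11.25 at 7 d (G93A, WT), against 8.81 and 8.69 at 24 h, a rise of 2.45 ± 0.21 (adjusted p = 0.000122). Cd68, a glycoprotein of macrophage lysosomes, stood at 11.85 and 12.52, against 10.05 and 9.93. Unlike Fcrl2, Cd68 was already far above the sham pools (6.87 to 7.07) at 24 h, and it rose by a further 2.19 ± 0.27 (adjusted p = 0.0012). Laptm5, a lysosomal membrane protein of blood-lineage cells, rose by 2.25 ± 0.37. Among the enzymes and cofactors of lysosomal digestion, Gusb (beta-glucuronidase) rose by 1.92 ± 0.23, Hexa (a hexosaminidase subunit) by 1.76 ± 0.24 and Grn (progranulin) by 1.73 ± 0.23. Cd36, a scavenger receptor for oxidized lipid, was the member that fell, with 6.93 and 6.74 at 7 d against 7.96 and 7.61 at 24 h. Its log2 change was -0.95 ± 0.10 (adjusted p = 0.000561), and the sham pools lay at 6.48 to 6.61. Pld4, an endolysosomal enzyme outside the list, rose by 2.90 ± 0.23, with 9.96 and 10.14 at 7 d against 7.22 and 7.06 at 24 h.

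Lysosomal genes are known to share a promoter element bound by the transcription factor TFEB, with the core GTCACGTG. This core was searched on both strands in promoters of the genes that rose on the phagosome and lysosome list, which also holds phagocyte genes. RefSeq promoters of the GRCr8 build, from 250 bases before to 50 after the gene's start, were at hand for 12 of 16 such genes, and 2 of them held the motif (16.7%, against 1.85% of all 33469 promoters). They were Ctsd, the aspartic protease cathepsin D, with 2 matches, and Gaa, the acid glucosidase of lysosomes, with 1. Ctsd had levels of 12.41 and 12.58 at 7 d against 10.84 and 10.81 at 24 h (rise 1.67 ± 0.30, adjusted p = 0.00962). Gaa had 9.3 and 8.79 at 7 d against 8.01 and 7.42 at 24 h (rise 1.33 ± 0.26, adjusted p = 0.0153). Unlike Ctsd, Gaa was below its sham levels (8.41 to 8.86) at 24 h and within or above them at 7 d. The windows are shown on the gene's strand, the motif in capitals as its opposite-strand form; a match is a description of the letters and no evidence of binding. The first 2 are Ctsd at chr1:206968945-206969004 and chr1:206968798-206968857 on the minus strand, and the last is Gaa at chr10:105028262-105028321 on the plus strand.
Ctsd upstream: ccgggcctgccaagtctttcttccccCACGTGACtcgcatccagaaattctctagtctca
Ctsd at the start: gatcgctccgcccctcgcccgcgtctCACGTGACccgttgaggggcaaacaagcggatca
Gaa: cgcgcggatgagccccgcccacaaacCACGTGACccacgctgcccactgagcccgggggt

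Complement genes, whose products tag debris and synapses for uptake, rose as a group. Of 18 tested, 11 rose (61.1%, against 2.96%), none fell and the median change was 0.88. C4b, shared by the classical and lectin routes, stood at 11.25 and 11.63 at 7 d (G93A, WT), against 9.01 and 8.57 at 24 h, a rise of 2.65 ± 0.28 (adjusted p = 0.000418). Cfd, the factor D protease of the alternative route, rose by 2.37 ± 0.25, with 9.98 and 10.51 against 7.69 and 8.05. C2, the protease that pairs with C4, rose by 2.34 ± 0.26. The 3 chains of the recognition molecule C1q rose together, C1qa by 2.03 ± 0.23, C1qc by 1.67 ± 0.20 and C1qb by 1.37 ± 0.22. These 3 genes are also members of the microglia identity list. In each of these genes both 7 d pools were above both 24 h pools.

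Genes of lipid handling moved both ways. Of 22 members of the lipid uptake and Trem2 state list, 8 rose (36.4%, against 2.96% of all probes) and 2 fell (9.09%, against 1.57%), with a median change of 0.10. Pltp, which transfers phospholipids between lipoproteins, had 12.23 and 12.46 at 7 d, against 9.72 and 9.13 at 24 h, and its 24 h levels lay below all sham pools (10.32 to 10.65). The rise was 2.92 ± 0.23 (adjusted p = 9.09e-05). The apolipoprotein Apoc1 rose by 2.11 ± 0.25, the cholesterol exporter Abcg1 by 1.45 ± 0.28, the Trem2 adaptor Tyrobp by 1.53 ± 0.30 and the macrophage glycoprotein Gpnmb by 1.23 ± 0.16. Pnlip, annotated as pancreatic lipase, rose by 2.88 ± 0.36, with 10.48 and 11.7 at 7 d against 8.39 and 8.04 at 24 h; its sham levels were 9.28 to 9.56. Slco2b1, an organic anion carrier, rose by 2.49 ± 0.21, and the membrane protein gene Tmem176b by 2.43 ± 0.24.

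Many genes of cholesterol synthesis fell over the same interval. Of 19 members tested, 8 fell (42.1%, against 1.57% of all probes) and 1 rose (5.26%, against 2.96%), with a median change of -0.95. Without the WT 30 min injury pool 14 fell (73.7%, against 4.78%) and 1 rose (5.26%, against 6.09%). Fdps, the farnesyl diphosphate synthase, had 9.77 and 9.52 at 7 d (G93A, WT), against 10.97 and 11.46 at 24 h. Its log2 change was -1.57 ± 0.21 (adjusted p = 0.00191), and both 7 d levels were below every sham pool (10.65 to 10.87). Sqle, the squalene epoxidase, followed the same course, with 9.77 and 9.86 against 11.19 and 11.51 (change -1.54 ± 0.24, adjusted p = 0.00503). Idi1, an isomerase earlier in the route, changed by -1.44 ± 0.24 and the sterol oxidase Msmo1 by -1.27 ± 0.24. Insig1, which holds back the sterol-sensing machinery, had 8.56 and 8.13 at 7 d against 9.71 and 9.63 at 24 h (change -1.33 ± 0.46) and missed the threshold (adjusted p = 0.163). The member that rose was Srebf1, a transcription factor gene better known for fatty acid synthesis, with 9.86 and 9.96 against 8.47 and 7.29 (rise 2.03 ± 0.36, adjusted p = 0.0092). The sterol regulatory element CACCCCAC, searched on both strands, was in 0 of the 6 promoters at hand for the genes that fell, against 2.7% of all promoters.

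**Figure D3:**
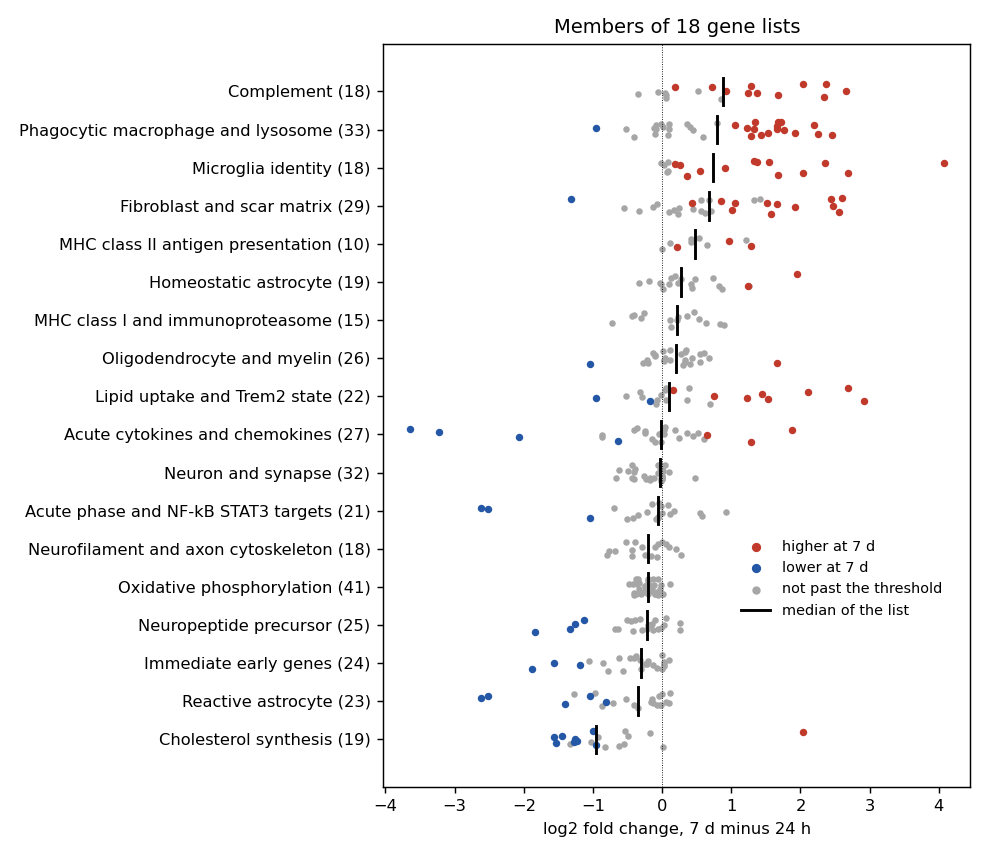
Log2 fold change between 24 h and 7 d (x axis) of the tested members of 18 gene lists (rows, number tested in brackets), with members past the threshold in red or blue, the others in grey, and the list median as a black bar. The medians range from 0.88 for complement to -0.95 for cholesterol synthesis.

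Genes of scar matrix rose in part. Of 29 tested, 12 rose (41.4%, against 2.96%) and 1 fell, and the median change was 0.68, with 0.41 in G93A and 0.97 in WT cord. Over the 12 pools no single gene passed the test of a genotype difference, which is given further on. Without the WT 30 min injury pool 17 rose (58.6%, against 6.09% of all probes) and 1 fell (3.45%, against 4.78%). Col1a1, a chain of type I collagen, had 9.58 in G93A and 11.6 in WT cord at 7 d, against 8.01 and 7.96 at 24 h (rise 2.61 ± 0.47, adjusted p = 0.0106). Col3a1 of type III collagen stood at 9.25 and 10.53, against 7.27 and 7.4 (rise 2.56 ± 0.32, adjusted p = 0.00141). For both collagens the 24 h pools lay close together and the WT pool was the higher at 7 d, with no overlap between the times. Fmod, a proteoglycan that organises collagen fibrils, had nearly equal levels in the genotypes, with 9.21 and 9.25 against 6.82 and 6.71 (rise 2.46 ± 0.17, adjusted p = 4.6e-05). Lum, a related proteoglycan, rose by 2.44 ± 0.55, but its 24 h levels (7.86 and 8.02) were below all sham pools (8.39 to 9.07). Postn (periostin) rose by 1.92 ± 0.45, Fbln1 (fibulin 1) by 1.66 ± 0.26 and Col1a2 by 1.57 ± 0.36. Ccn1, a matrix signal induced early after injury, changed by -1.32 ± 0.28 and was the member that fell. Of the defining fibroblast markers Col1a1, Col1a2 and Lum rose, and Dcn had 12.21 and 11.94 against 11.69 and 11.33 without passing the threshold (adjusted p = 0.286). The summed level of these 4 markers was 13330 in G93A and 24850 in WT cord at 7 d, against 7075 and 6905 at 24 h.

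Some acute inflammatory genes fell. Ccl2, the chemokine that draws monocytes, had the largest fall of any named gene tested, with log2 levels of 7.53 and 7.7 at 7 d (G93A, WT) against 10.53 and 12.0 at 24 h. The log2 change was -3.65 ± 0.36, 12.5-fold lower (adjusted p = 0.000265), and the 7 d levels lay within the range of the sham pools (7.02 to 9.99), which were themselves high at 4 h. Ccl7, a related chemokine, had 6.7 and 6.97 against 9.46 and 10.65 (change -3.22 ± 0.30, adjusted p = 0.000192). The neutrophil chemokine Cxcl1 was down to 6.93 and 6.69 at 7 d, against 8.35 and 9.39 at 24 h, below every sham pool (7.4 to 9.4), with a change of -2.06 ± 0.35 (adjusted p = 0.00734). Ccr1, a chemokine receptor of myeloid cells, changed by -2.32 ± 0.28. The cytokine and chemokine list did not move as a whole: of 27 tested 4 fell (14.8%, against 1.57% of all probes), 3 rose (11.1%, against 2.96%) and the median change was -0.02. Cxcl13, which draws B cells, went the other way, with 10.45 and 9.59 at 7 d against 7.77 and 8.52 at 24 h (rise 1.88 ± 0.31, adjusted p = 0.00668), and the transforming growth factor gene Tgfb1 rose by 1.29 ± 0.19. Il1b, the interleukin 1 beta gene, had 10.66 and 10.06 (G93A, WT) at 4 h and changed by -0.87 ± 0.32 between 24 h and 7 d without passing the threshold (adjusted p = 0.185).

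For 6 of the 7 genes that fell on the cytokine, chemokine and acute-phase lists a promoter was at hand, and 1 held the kappa B sequence GGGAATTTC on either strand (16.7%, against 0.296% of all promoters). It was Cxcl1, long known as a target of NF-kB, and the window is chr14:17479371-17479431 on the minus strand of GRCr8, from RefSeq, with the match in capitals.
Cxcl1: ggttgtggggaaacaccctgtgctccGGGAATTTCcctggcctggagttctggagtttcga

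Neutrophil genes fell in part. Of 15 tested, 4 fell (26.7%, against 1.57% of all probes) and 1 rose (6.67%, against 2.96%). The list did not move as a whole: the median change was -0.01, with 7 members above 0 and 8 below. The one that rose was Itgam, an integrin that microglia and macrophages share. Slpi, a secreted inhibitor of leukocyte protease, had 7.15 and 8.01 at 7 d against 10.67 and 10.39 at 24 h (change -2.95 ± 0.38, adjusted p = 0.00148). S100a8, a calcium-binding protein abundant in neutrophils, stood at 8.44 in G93A and 6.67 in WT cord at 7 d, against 9.9 and 10.28 at 24 h (change -2.53 ± 0.55, adjusted p = 0.0263). The G93A pool was the higher at 7 d and the lower at 24 h. Il1r2, the decoy receptor of interleukin 1, changed by -2.14 ± 0.37 and the arginase gene Arg1 by -1.68 ± 0.23. Of the 4 genes that fell, only S100a8 is a defining neutrophil marker. The defining marker Mpo was near the detection limit in all 4 pools (6.45 to 6.5), and S100a9 was not among the probes tested. The summed level of S100a8 and Mpo was 437.1 and 192.3 at 7 d, against 1040 and 1332 at 24 h.

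Acute-phase and reactive astrocyte genes fell in part. Lcn2, the iron-binding lipocalin 2, had 10.01 and 9.79 at 7 d against 12.51 and 12.52 at 24 h, and the sham pools lay between 6.94 and 10.47. Its change was -2.62 ± 0.31 (adjusted p = 0.000899). Serpina3n, a protease inhibitor of reactive astrocytes, was highest at 24 h, with 6.78 and 6.81 at 7 d against 9.6 and 9.01 at 24 h and 6.43 to 6.5 in sham cord (change -2.51 ± 0.16, adjusted p = 2.83e-05). Both belong to both lists. Of 23 reactive astrocyte genes, 5 fell (21.7%, against 1.57% of all probes), none rose and the median change was -0.35, and without the WT 30 min injury pool 8 fell (34.8%, against 4.78%). Cd14, the endotoxin co-receptor, changed by -1.40 ± 0.25 and Timp1, an inhibitor of metalloproteases, by -1.05 ± 0.22. Of 21 acute-phase genes, 3 fell (14.3%, against 1.57%) and none rose, with a median of -0.06. Without the WT 30 min injury pool 5 fell (23.8%, against 4.78%) and 1 rose (4.76%, against 6.09%). Mmp3 (stromelysin 1), a matrix protease, changed by -2.07 ± 0.28 and Prg4, the lubricant proteoglycan, by -2.05 ± 0.34. Gpx2, a glutathione peroxidase, had 7.27 and 8.23 against 10.71 and 10.48 (change -2.85 ± 0.29, adjusted p = 0.000297), and Gldn (gliomedin, which clusters channels at nodes of Ranvier) changed by -2.47 ± 0.28.

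**Figure D4:**
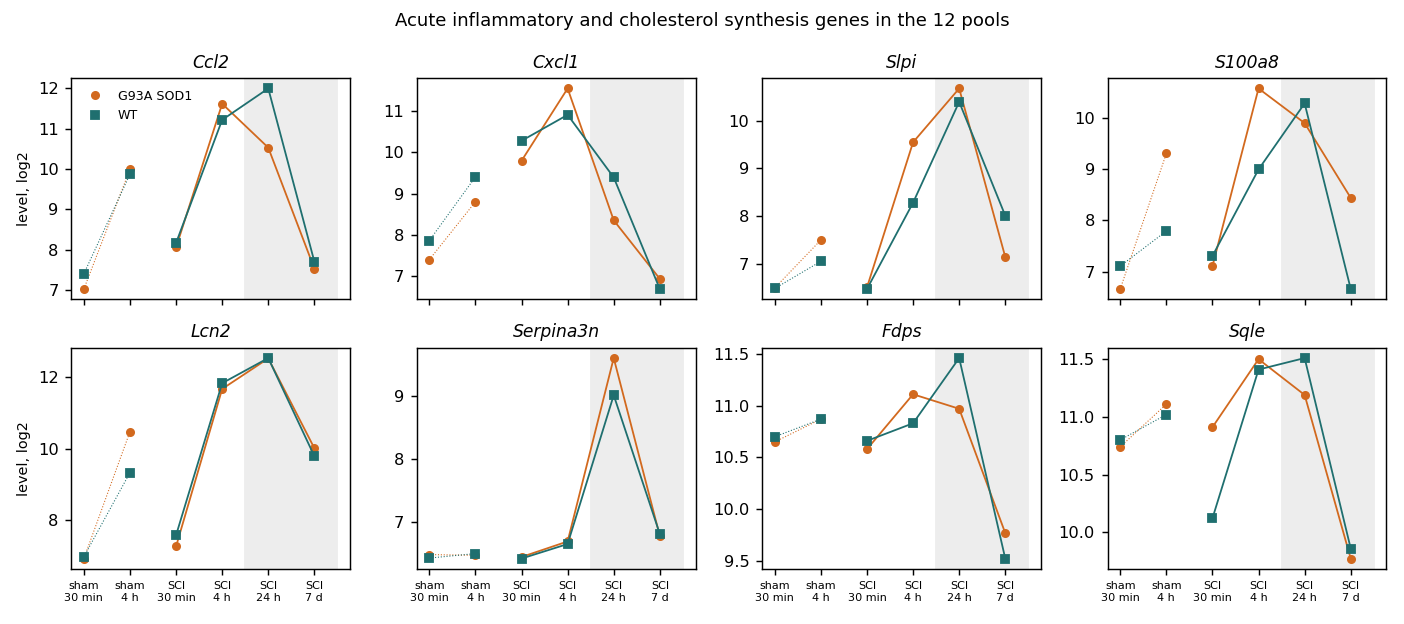
Normalized log2 level (y axis) of 8 genes that fell between 24 h and 7 d, in all 12 pools ordered by condition along the x axis, with G93A SOD1 as circles, WT as squares and the compared times shaded. Both 7 d pools lie below both 24 h pools in each panel, Fdps and Sqle end below the sham pools, and S100a8 is higher in the G93A than in the WT pool at 7 d and lower at 24 h.

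A few immediate early and neuropeptide genes fell. Of 24 immediate early genes, which code for transcription factors switched on within minutes, 3 fell (12.5%, against 1.57% of all probes), none rose and the median change was -0.31; without the WT 30 min injury pool 7 fell (29.2%, against 4.78%). Fosl1 had 6.85 and 6.91 at 7 d against 8.22 and 9.32 at 24 h (change -1.89 ± 0.37, adjusted p = 0.015), Myc changed by -1.56 ± 0.30 and Fos by -1.19 ± 0.25. Of 25 neuropeptide precursor genes, 4 fell (16%, against 1.57%), none rose and the median change was -0.21. Vgf, an inducible precursor made by stimulated neurons, had 8.07 and 7.49 at 7 d against 9.42 and 9.81 at 24 h, both times above the sham pools (6.91 to 7.06), a change of -1.83 ± 0.28 (adjusted p = 0.0042). Gal (galanin) changed by -1.33 ± 0.31, Calcb (a calcitonin gene-related peptide) by -1.25 ± 0.28 and Tac1 (the substance P precursor) by -1.13 ± 0.20.

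Neuronal and myelin genes did not pass the test, with few exceptions. Of 32 neuron and synapse genes and 18 neurofilament genes, 0 passed in limma, and the medians were -0.03 and -0.20. The mean was lower at 7 d for 26 and 14 of them, against 7312 of all 13793 probes. An unadjusted p under 0.05 was found for 2 and 1 of them, against 2129 of all 13793 probes. Without the WT 30 min injury pool 1 gene of each list fell (3.12% and 5.56%, against 4.78% of all probes). Snap25, a synaptic vesicle fusion protein, had 11.56 and 10.59 at 7 d (G93A, WT), against 12.03 and 11.45 at 24 h (adjusted p = 0.228). Nefl, the light neurofilament, had 13.1 and 12.11 against 13.42 and 13.32 (adjusted p = 0.119), and Nefm, the medium one, had 10.68 and 9.19 against 10.78 and 10.44 (adjusted p = 0.388). For these 3 genes the WT pool at 7 d was the lowest of the 4. Syt1 changed by -0.02 ± 0.32, Thy1 by -0.17 ± 0.41 and Rbfox3, near the detection limit, by 0.01 ± 0.07. The summed level of the 5 neuron markers was 12740 and 6545 at 7 d, against 15980 and 13740 at 24 h. Of 26 myelin genes 1 rose and 1 fell (3.85% each, near the 2.96% and 1.57% of all probes), with a median of 0.19. Tspan2, a tetraspanin of oligodendrocytes, had 10.14 and 10.74 against 8.84 and 8.73 (rise 1.66 ± 0.26, adjusted p = 0.00441), and the small heat shock protein Cryab changed by -1.05 ± 0.18. Mbp, myelin basic protein, had 10.19 and 9.99 at 7 d against 9.47 and 9.51 at 24 h without passing (adjusted p = 0.344), and sham levels were 11.8 to 12.45. Mag, Mobp and Mog changed by 0.30 ± 0.25, -0.28 ± 0.19 and 0.02 ± 0.15.

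Some genes of resting astrocytes rose. Of 19 members of the homeostatic astrocyte list, 2 rose (10.5%, against 2.96% of all probes), none fell and the median change was 0.27; without the WT 30 min injury pool 6 rose (31.6%, against 6.09%). Mlc1, a membrane protein of astrocyte endfeet, had 10.28 and 9.23 at 7 d against 8.49 and 7.11 at 24 h (rise 1.96 ± 0.39, adjusted p = 0.0177). Gja1, the gap junction protein connexin 43, had 13.22 and 13.02 against 11.83 and 11.92 (rise 1.25 ± 0.20, adjusted p = 0.00515). Both genes were below all sham pools at 24 h. Slc4a4, a bicarbonate transporter, changed by 1.26 ± 0.37 and missed the threshold (adjusted p = 0.0944), and its second probe by 0.04. The defining markers Aqp4 (the endfoot water channel) and Slc1a2 (a glutamate transporter) changed by 0.18 ± 0.27 and -0.34 ± 0.22 and did not pass.

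Antigen presentation genes rose in part for class II, and none passed for class I. Of 10 class II genes, 3 rose (30%, against 2.96% of all probes), none fell and the median change was 0.47, and without the WT 30 min injury pool 5 rose (50%, against 6.09%). The protease gene Ctss, which processes the class II chaperone, had 13.58 and 13.21 at 7 d against 11.93 and 12.29 at 24 h (rise 1.28 ± 0.19, adjusted p = 0.00341). Cd83, a co-stimulatory surface protein, rose by 0.97, while the chaperone Cd74 changed by 0.65 ± 0.37 and did not pass (adjusted p = 0.463). Of 15 class I genes, 0 passed in limma and 4 had an unadjusted p under 0.05 (against 2129 of all 13793 probes), with a median of 0.21. Without the WT 30 min injury pool 4 rose (26.7%, against 6.09% of all probes) and 1 fell (6.67%, against 4.78%). B2m, the class I light chain, had 14.18 in both pools at 7 d against 13.52 and 13.58 at 24 h (adjusted p = 0.0535). The motif GAGGAAGT of PU.1, a myeloid transcription factor, occurred on either strand in 1 of the 28 promoters at hand for the 42 genes that rose on the microglia, lysosome, complement and lipid lists (3.57%, the gene being Ctss), close to the 2.42% of all promoters.

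Whether the change differed between genotypes was tested as an interaction. None of 13793 probes passed (0.0%) in limma, and 327 had an unadjusted p under 0.05. The 5 smallest p-values belonged to Aspn, Tnmd, Mmp12, Itga11 and Knstrn. In the injury pools at 30 min and 4 h, which help to set the spread, all 5 were at or near the detection limit. Tnmd, for example, lay at 6.44 to 6.49 there and Aspn at 6.47 to 6.65. The part of such low levels in the small standard errors of these genes was not tested. Aspn (asporin, a matrix proteoglycan) had 6.77 in G93A and 8.66 in WT cord at 7 d, against 6.52 and 6.54 at 24 h, a change smaller in G93A by 1.87 on the log2 scale (difference -1.87 ± 0.16, adjusted p = 0.0657). Mmp12, the macrophage elastase, had 7.12 and 8.42 against 7.09 and 7.07 (difference -1.31 ± 0.14, adjusted p = 0.1). In both genes the 24 h pools lay close together and the WT pool was the highest at 7 d. Knstrn, a protein of the mitotic spindle, had 7.71 and 7.15 against 6.99 and 7.5 (difference 1.07 ± 0.14, adjusted p = 0.246). Without the WT 30 min injury pool 53 probes passed (0.384%), 37 with the lower change in G93A and 16 with the higher. The spread then came only from the genotype pairs at 4 h after injury, 4 h after sham and 30 min after sham. In these pairs 33, 16 and 6 probes differed 2-fold or more, against 57 and 116 in the 24 h and 7 d injury pairs. The p-values behind the 53 therefore do not measure how late injury pools scatter. The 5 largest named differences below 0 (G93A minus WT) were in Dhx15, Tnn, Ceacam4, Col1a1 and Col5a1. The 5 largest above 0 were in Rpl30, Cks2, Prc1, Cdk1 and Ccl12. Ccl12 fell in both genotypes, by less in G93A (-0.61) than in WT cord (-1.76). Cks2, Prc1 and Cdk1 act in cell division. Cdk1, the mitotic kinase, had 8.26 and 8.01 at 7 d (G93A, WT) against 7.92 and 8.97 at 24 h, so that the WT 24 h pool was the highest of the 4 and the G93A 24 h pool the lowest.

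**Figure D5:**
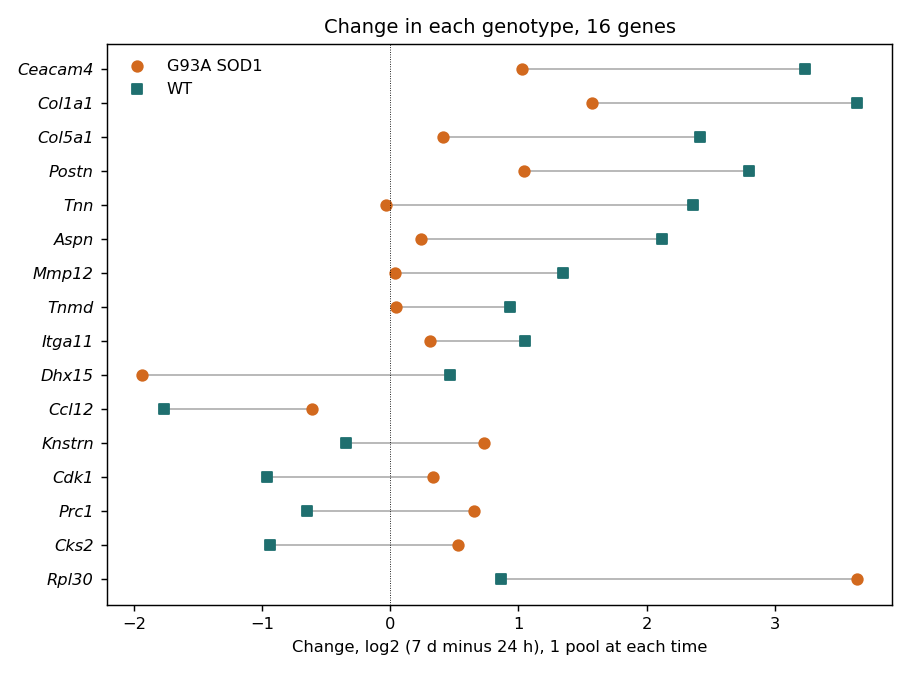
Log2 change between 24 h and 7 d (x axis) in G93A SOD1 cord (circles) and WT cord (squares) for 16 genes (rows): the 15 named for the genotype difference and Postn. Each point is the difference of 1 pool at each time; Col1a1 changed by 1.57 in G93A and 3.64 in WT cord, and Cdk1 by 0.34 and -0.96.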

How the data were processed

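RNA of 12 pools was measured on 12 Illumina rat arrays. The deposited signals are intensity values from BeadStudio 3.2.6, per the submitters' processing notes, and are background-subtracted, since 21% to 28.6% of values lie below 0; a detection p-value stands beside each, per the file headers. The deposited series matrix, used as an alternative, has intensity values that on each array follow these signals linearly, uncentred, with medians of 6.27 to 11.71; how they were scaled is not stated.

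Identifiers are misaligned in the deposited table: 51.8% of 1271 probes of odorant and pheromone receptors were detected as deposited and 6.08% after text-sorting the identifiers, against 53.3% and 90.7% of 114 ribosome and proteasome probes. This pairing was inferred, and 13192 of 22226 probes have 1 gene symbol in the platform annotation, 0 several.

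Signals were normalized with neqc (limma 3.58.1, R 4.3.3; offset 16, quantile) to log2 values. One limma fit with 6 conditions and genotype (5 residual degrees of freedom; 3 for the genotype difference; eBayes with trend) gave the contrast, with Benjamini-Hochberg adjustment over 13793 probes. The genotype term is the pairing, since same-numbered pools share the genotype. On simulated data for this contrast with 13793 probes, 80 of 100 probes changed 2-fold and 96 of 100 changed 4-fold were called. The simulation gave a probe the same spread in every pool and the same change in both genotypes. The real pools differ in both respects, so it does not measure recovery in them. Alternatives covered normalization, filter, offset, prior, pools and pairing. For each gene the probe with the highest mean stands; 1034 of 1328 list entries were on the array. Named genes are the 15 largest changes each way, up to 6 of each list described with its markers, Sod1, and the 5 smallest p of the genotype difference; others were named after their values were seen. Members and lists were chosen with earlier results of these data known.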

Additional observations from a re-analysis of the deposited data

Results flagged for a closer look

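The genotype difference in the change between 24 h and 7 d was singled out because 53 probes passed the interaction test once the WT 30 min injury pool was left out, while none passed over all 12 pools (327 at an unadjusted p under 0.05). The change in G93A minus the change in WT cord, on the log2 scale, was -2.40 for Dhx15, -2.39 for Tnn, -2.21 for Ceacam4, -2.07 for Col1a1 and -2.01 for Col5a1. It was 2.77 for Rpl30, 1.47 for Cks2, 1.31 for Prc1, 1.30 for Cdk1 and 1.15 for Ccl12. The 5 genes with the smallest p over all pools had differences of -1.87 (Aspn), -0.89 (Tnmd), -1.31 (Mmp12), -0.75 (Itga11) and 1.07 (Knstrn). Each difference rests on 1 pool per genotype and time. Without the WT 30 min injury pool, the spread in the test came from the 4 h injury and the sham pairs alone, not from late injury pools. For Rpl30 the G93A 24 h pool was the low one, with 11.96 and 11.73 at 7 d (G93A, WT) against 8.33 and 10.87 at 24 h. For Dhx15 the G93A 24 h pool was the high one, with 7.28 and 8.26 against 9.22 and 7.79. The part of single pools in these differences was not tested.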

How the results depend on the processing

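The main count of 624 probes (408 higher, 216 lower at 7 d) depended on which pools set the spread. Deposited series matrix values called 274 probes (209 higher, 65 lower), the 4 late injury pools alone 2216 (1157 and 1059, with 1 residual degree of freedom) and the 8 injury pools alone 215 (158 and 57). Median scaling called 255 higher and 680 lower. Without both 30 min injury pools 1497 were called (841 and 656). With each pool left out in turn, 130 to 1499 probes were called, 91 to 840 higher and 39 to 659 lower. The count moved by over 1.5 times without the WT (1499) or the G93A 30 min injury pool (1481), the WT 24 h pool (130), the WT 7 d pool (189), the G93A 24 h pool (282), the G93A 7 d pool (404) and either 30 min sham pool (402). The falls also dropped to 132 and 134 without the WT and the G93A 4 h sham pool. A lone pool left at its time was taken to vary as the other times do. With no replicate block (no genotype term), 721 probes were called, 458 higher and 263 lower, 610 of them among the 624.

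The genotype difference passed for 0 probes over all 12 pools, 1 with an offset of 50, 44 without both 30 min injury pools, 53 without the WT and 47 without the G93A one, and 0 to 53 over the single pools left out. It could not be fitted for the 4 late pools alone, without the genotype term or without any late pool, so those were not run.

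A set of 116 genes was followed through the 23 settings, most of them named above and a few, such as Enpp6, Adamts1 and Ctsk, not. Of the 90 called genes in this set, none changed sign and 36 were called in all settings. The call was lost by 47 without the WT 24 h pool and by 46 without the WT 7 d pool. It was lost by 31 without the G93A 24 h pool, 28 without the G93A 7 d pool and 6 with median scaling. Among the less steady calls, Itgam, Postn, Itga11 and Txnrd1 each lost it in 13 settings. Of the uncalled genes in the set, 7 changed sign. With median scaling Mag was -0.05177, Mog -0.34 and Rbfox3 -8.404e-05, and with the series matrix Rbfox3 was -0.006215. With single pools left out Mag lay between -0.000971 and 0.61, Mog between -0.09875 and 0.15, Syt1 between -0.38 and 0.34, Nefm between -1.38 and 0.02021, Rbfox3 between -0.05138 and 0.06168, Thy1 between -0.48 and 0.14 and Sod1 between -0.36 and 0.12. The list medians kept their sign for complement (0.49 to 1.04), lysosome (0.52 to 1.26), microglia (0.57 to 1.32), scar matrix (0.44 to 1.04) and cholesterol synthesis (-1.25 to -0.80). They turned sign in at least 1 setting for lipid uptake (-0.0057 to 0.33), class I (-0.0072 to 0.26), myelin (-0.033 to 0.29), neutrophils (-0.88 to 0.017), cytokines (-0.11 to 0.0046), neurons (-0.20 to 0.022), neurofilaments (-0.45 to 0.020) and oxidative stress (-0.29 to 0.043); the cause was not tested.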

Other observations

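Some stress-response genes fell between 24 h and 7 d. Of 28 heat shock and unfolded protein response genes, 4 fell (14.3%, against 1.57% of all probes), none rose and the median change was -0.30. Hspb8, a small heat shock protein, had 9.91 and 9.81 at 7 d (G93A, WT) against 10.81 and 11.15 at 24 h, and Atf4, the transcription factor of the integrated stress response, had 10.04 and 9.97 against 10.89 and 11.28. Of 27 oxidative stress genes 5 fell (18.5%, against 1.57%) and 1 rose (3.7%, against 2.96%), with a median of -0.03. Without the WT 30 min injury pool 6 fell (22.2%, against 4.78%) and 4 rose (14.8%, against 6.09%). Sod2, the mitochondrial superoxide dismutase, changed by -0.99 ± 0.19 and Txnrd1, a thioredoxin reductase, by -1.07, while the secreted peroxidase Gpx3 rose by 1.67 ± 0.24. Ngfr, the low-affinity neurotrophin receptor, had 9.59 and 9.94 at 7 d against 7.91 and 8.48 at 24 h (rise 1.57 ± 0.26, adjusted p = 0.00622 in limma).

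Of 41 oxidative phosphorylation genes, 39 had a lower mean at 7 d (against 7312 of all 13793 probes), with a median of -0.20. None passed the threshold in limma and 3 had an unadjusted p under 0.05, against 2129 of all 13793 probes. Without the WT 30 min injury pool 2 fell (4.88%, against 4.78% of all probes). Of 37 cell cycle genes 2 fell (5.41%, against 1.57%), the primase gene Prim1 and the cyclin gene Ccna2, with a median of -0.05. Prim1 lost the call in 14 and Ccna2 in 12 of the 23 alternative settings. Without the WT 30 min injury pool 5 cell cycle genes fell (13.5%, against 4.78%). Of 25 olfactory receptors on the array, listed as silent genes, 20 were not tested and 5 passed the detection filter. Of these 5, 1 rose (20%, against 2.96% of all probes), namely Olr35, by 0.32 ± 0.05. The 5 were thus picked for being detected and cannot serve as a silent control. The skeletal muscle list had 1 fall of 17 (5.88%, against 1.57%), the troponin gene Tnnc2 (-1.75), and 4 without the WT 30 min injury pool (23.5%, against 4.78%). The summed level of the muscle markers Acta1 and Ckm was 213.4 and 192.8 at 7 d against 253.7 and 259.2 at 24 h; its part in that result was not tested.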
